A study of Mus musculus with 6 samples.

Results

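The genes described here are the class II and class IV histone deacetylases (HDACs) of the mouse: Hdac4, Hdac5, Hdac7 and Hdac9 (class IIa), Hdac6 and Hdac10 (class IIb) and Hdac11 (class IV). They were chosen by symbol, and each of the 7 matched exactly 1 of the 31053 features in the count tables. Single nuclei of hippocampus from 12-week-old C57BL/6 mice were profiled by droplet 3′ RNA sequencing in 6 libraries, each a pool of 5 mice. The mice received vehicle (Veh) or CI-994, an inhibitor of class I HDACs (HDACi in the labels), at 30 mg/kg by intraperitoneal injection 1 h ahead of an exposure, with tissue taken 1 h afterwards. Contextual fear conditioning (CFC) combined the chamber with 2 foot shocks of 0.2 mA, whereas Context mice saw the chamber without shock. Each CFC group has 2 libraries and each Context group 1, and the inhibitor was compared with vehicle within each exposure. For the vehicle library of the Context pair the labels disagree: vehicle by title and treatment, inhibitor by description. It is called the library labelled Veh-Context.

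HDACs remove acetyl groups from lysines of histones and other proteins. The class IIa enzymes have little catalytic activity of their own on acetylated histones. They bind MEF2 transcription factors and recruit corepressor complexes that contain Hdac3, and when calcium-dependent or other kinases phosphorylate them, 14-3-3 proteins hold them outside the nucleus, which ties them to neuronal activity. Hdac6 is a mainly cytoplasmic tubulin deacetylase, Hdac10 deacetylates polyamines, and Hdac11 removes long-chain fatty acyl groups. CI-994 is directed at the class I enzymes, so these 7 genes encode HDACs outside its intended targets, and only their RNA was measured.

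The 6 libraries held 24508202 to 45570814 UMIs (unique molecular identifiers, 1 for each captured RNA molecule), and 26839 of 30323 barcodes were kept after filtering. Median genes per nucleus were 2772 and 3035 for Veh-CFC against 2218 and 2466 for HDACi-CFC, and 2940 against 2669.5 in the Context pair. Pairs of libraries shared 1 to 11 barcodes. Nuclei were grouped into classes by clustering without these genes and named from marker genes, hence the ending -like, and 11 classes with at least 30 nuclei in each library were analysed. They ranged from 258 Cajal-Retzius-like to 9019 dentate gyrus (DG) granule-like nuclei, and 3669 nuclei stayed without a name. The tissue label names the DG, but CA1-like nuclei (3304) and other fields were present as well. Prox1, a defining granule cell factor, lay at 266.4 to 275.1 CPM (counts per 1e+06 UMIs) with vehicle and 365.3 to 410 CPM with the inhibitor in DG granule-like nuclei. In CA1-like nuclei it lay at 1.80 to 8.41 CPM. It was not limited to the granule class, at 729.9 to 1444 CPM in immature neuron-like and 119.8 to 216.4 CPM in oligodendrocyte-like nuclei. The 2 Context libraries stood apart from the 4 CFC libraries for a few genes. Of 13328 genes with at least 5 CPM in a library, 80 were over 2-fold lower in both Context libraries than in each CFC library and 327 over 2-fold higher. Of the members, only Hdac10 was among them, on the lower side.

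The promoter windows of 4 members are shown because these genes carry the changes described below: Hdac5 and Hdac9 were among those that rose, and Hdac4 (higher in 4 other classes) and Hdac6 fell in DG granule-like nuclei. Each is the 250 bases before an annotated start on the minus strand, 5′ to 3′, from RefSeq (GRCm38.p6). The windows are chr11:102230173-102230422 for Hdac5 and chrX:7947890-7948139 for Hdac6. Those of Hdac9 (chr12:34528890-34529139) and Hdac4 (chr1:92180342-92180591) belong to a start inside the gene, not to its outer start. Capitals mark GC boxes (GGGCGG or CCGCCC) and MEF2 cores. MEF2 core here means the loose pattern CTANNNNTAG, with any 4 bases in the middle, which reads the same on both strands.
Hdac5: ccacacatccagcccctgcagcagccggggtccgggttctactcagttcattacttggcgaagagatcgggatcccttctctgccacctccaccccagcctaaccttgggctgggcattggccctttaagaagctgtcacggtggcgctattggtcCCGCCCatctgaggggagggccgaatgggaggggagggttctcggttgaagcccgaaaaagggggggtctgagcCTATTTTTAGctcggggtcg
Hdac9: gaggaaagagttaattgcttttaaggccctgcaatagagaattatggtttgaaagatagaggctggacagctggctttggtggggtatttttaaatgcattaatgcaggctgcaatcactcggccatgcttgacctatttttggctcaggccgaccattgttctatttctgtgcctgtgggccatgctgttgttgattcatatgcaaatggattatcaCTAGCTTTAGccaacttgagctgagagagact
Hdac4: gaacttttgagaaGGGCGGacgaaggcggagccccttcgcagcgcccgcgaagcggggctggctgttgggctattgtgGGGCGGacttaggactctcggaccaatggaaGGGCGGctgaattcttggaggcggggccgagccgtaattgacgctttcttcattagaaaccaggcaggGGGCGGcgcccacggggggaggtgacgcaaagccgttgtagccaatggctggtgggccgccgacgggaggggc
Hdac6: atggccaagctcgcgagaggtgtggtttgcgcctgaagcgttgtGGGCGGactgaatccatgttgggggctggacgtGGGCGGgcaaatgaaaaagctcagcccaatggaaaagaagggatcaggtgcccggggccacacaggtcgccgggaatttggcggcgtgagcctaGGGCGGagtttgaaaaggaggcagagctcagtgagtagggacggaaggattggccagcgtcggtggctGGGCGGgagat
The windows of Hdac4 and Hdac6 held 4 GC boxes each, and that of Hdac5 held 1 GC box and 1 MEF2 core. That of Hdac9, picked among its windows for this motif, held 1 MEF2 core. The middle 4 bases of the core were TTTT in Hdac5 and GCTT in Hdac9, so only the Hdac5 match had A or T alone there. The window at the outer start of Hdac9 (chr12:34917096-34917345), the 4 windows of Hdac7 and that of Hdac11, genes that also rose, held no MEF2 core. The Hdac11 window and the Hdac7 window at chr15:97831496-97831745 held 1 GC box each, and the other Hdac7 and Hdac9 windows none. A link between these motifs and the direction of change was not tested. Over all 32851 promoter windows of this length, 32.7% held a GC box and 3.2% a MEF2 core. The Hdac4, Hdac5 and Hdac6 windows were 65.2%, 60.8% and 61.2% G or C and the Hdac9 window 43.6%, against a median of 52.4% over all windows. The matches are letters in a window, and no binding was measured.

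Without the inhibitor, the 7 genes had different patterns over the classes. Levels in this paragraph and the 3 after it are CPM, the gene's UMIs scaled to the UMIs of its class and library, as mean ± SD over the 3 vehicle libraries (n = 3). They are a description with no test. Hdac4 (chromosome 1, 91928779 to 92195699, mm10), a class IIa enzyme studied in memory, stood highest in astrocyte-like nuclei at 195.4 ± 14.9 CPM. All 3 libraries (182.8 to 211.9) lay above the next class there. CA3-like, interneuron-like and subicular-cortical-like nuclei followed at 110.7 ± 10.7, 109.4 ± 9.35 and 92.9 ± 14.5 CPM, with neighbouring ranges that overlapped. CA1-like nuclei stood at 70.8 ± 6.51 CPM. The lower classes ran from 56.4 ± 8.57 CPM in Cajal-Retzius-like to 42.3 ± 21.1 CPM in microglia-like nuclei, again with overlapping neighbours. DG granule-like nuclei, at 44.2 ± 4.43 CPM, were among them.

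Hdac5 (chromosome 11, 102194432 to 102230166), the class IIa enzyme closest to Hdac4 and Hdac9 in its MEF2-binding role, was highest in interneuron-like nuclei at 41.8 ± 2.45 CPM. Its lowest means were in DG granule-like (15.2 ± 0.929 CPM), OPC-like (oligodendrocyte precursor, 13.8 ± 3.44 CPM) and astrocyte-like nuclei (11.8 ± 4.89 CPM). The ranges of all neighbours in its order overlapped. In astrocyte-like nuclei Hdac4 was thus at its highest and Hdac5 at its lowest mean. Hdac7 (chromosome 15, 97792664 to 97844502) is known for its role in blood vessels and the thymus. Endothelial-like (183 in all) and mural-leptomeningeal-like nuclei (179) were too few per library to be analysed, so the order of classes leaves them out. Among the analysed classes, Hdac7 was highest in oligodendrocyte-like nuclei at 68.5 ± 11.7 CPM. Immature neuron-like, astrocyte-like, DG granule-like and interneuron-like nuclei followed between 50.4 and 44.1 CPM. The hippocampal fields differed for Hdac7: 47.7 ± 3.32 CPM in DG granule-like, 21.0 ± 0.506 CPM in CA3-like and 6.37 ± 0.210 CPM in CA1-like nuclei, with ranges that did not overlap between these 3 fields. The CA1-like mean was 10.8 times lower than the oligodendrocyte-like mean and rested on 97 UMIs.

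Hdac9 (chromosome 12, 34047580 to 34917095) encodes, besides the full enzyme, a short form without the deacetylase domain that still binds MEF2. Counts per gene cannot tell these forms apart. It was highest in interneuron-like nuclei at 554.9 ± 84.9 CPM, followed by microglia-like (418.0 ± 58.7), subicular-cortical-like (397.8 ± 133) and CA1-like nuclei (390.3 ± 62.8). DG granule-like and CA3-like nuclei stood at 328.6 ± 28.6 and 301.6 ± 23.2 CPM. The CA3-like range lay wholly above that of astrocyte-like nuclei (210.5 ± 39.3). The lowest means were in Cajal-Retzius-like (87.0 ± 30.7) and oligodendrocyte-like nuclei (77.7 ± 4.20), 7.14 times below the highest.

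Hdac6 (chromosome X, 7930120 to 7947889) varied less, from 26.0 ± 4.18 CPM in interneuron-like to 8.14 ± 4.18 CPM in oligodendrocyte-like nuclei. The ranges of all its neighbours overlapped. In the pyramidal and granule fields it stood at 16.9 ± 1.77 CPM in DG granule-like, 14.5 ± 3.13 CPM in CA3-like and 11.2 ± 0.891 CPM in CA1-like nuclei. Hdac10 (chromosome 15, 89123307 to 89128700) had the fewest UMIs, 134 over the 3 vehicle libraries in DG granule-like nuclei and 4 in OPC-like nuclei. Its class means from 11.6 ± 12.8 to 2.96 ± 3.21 CPM overlapped between neighbours throughout. It differed between libraries instead. Over all nuclei Hdac10 stood at 5.98 and 5.33 scaled CPM (defined below) in Veh-CFC and at 5.13 and 5.02 in HDACi-CFC, but at 2.07 (vehicle) and 1.85 (inhibitor) in the Context pair. Exposure and any difference in how the Context libraries were made cannot be told apart there. Hdac11 (chromosome 6, 91156665 to 91174692) was highest in interneuron-like (76.2 ± 23.9 CPM), Cajal-Retzius-like (71.4 ± 7.07), oligodendrocyte-like (50.6 ± 9.04) and subicular-cortical-like nuclei (40.7 ± 0.163). It was lowest in DG granule-like (15.7 ± 1.07), astrocyte-like (12.7 ± 1.64) and OPC-like nuclei (12.0 ± 7.39). CA1-like and CA3-like nuclei held 35.8 ± 3.05 and 29.6 ± 7.45 CPM, and their ranges lay above that of DG granule-like nuclei.

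**Figure D1:**
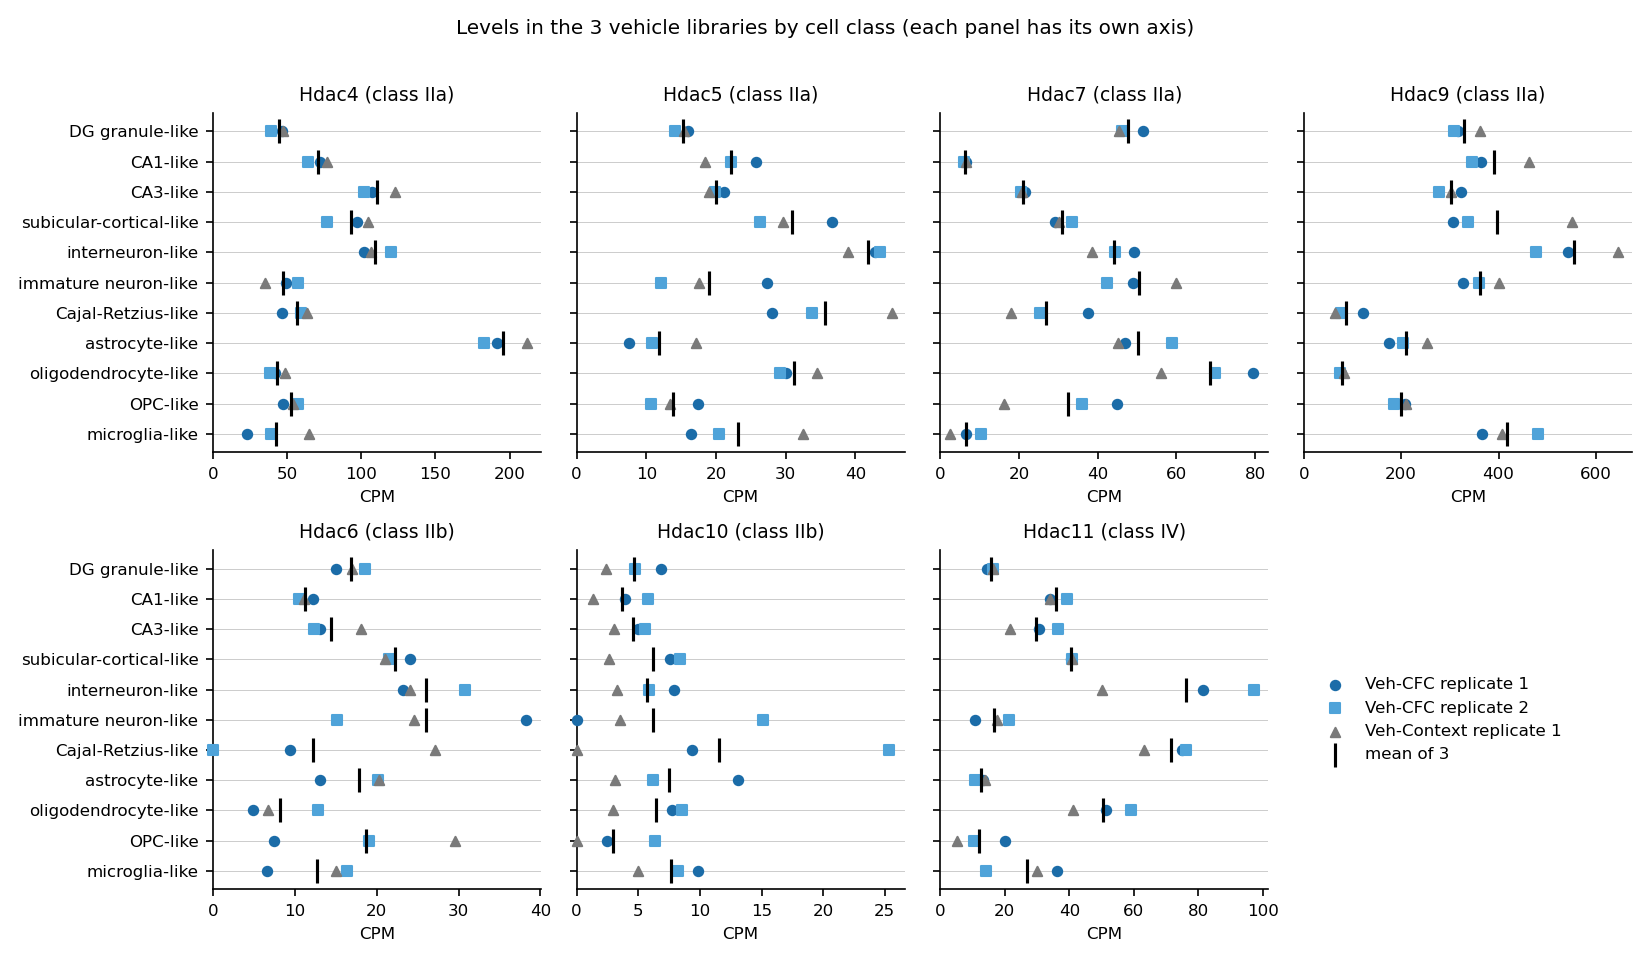
Level of each member in each analysed cell class in the vehicle libraries. The x axis is CPM with a scale of its own in each panel, points are the 3 libraries and the black tick is their mean. Hdac4 stands highest in astrocyte-like nuclei (182.8 to 211.9 CPM) and Hdac7 in oligodendrocyte-like nuclei, at a mean of 68.5 CPM against 6.37 CPM in CA1-like nuclei.

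For each member, the 3 genes whose vehicle means ran most alike over the 11 classes were taken from 11817 genes by Pearson correlation of log2(CPM + 1). For Hdac4 these were Ephx2, a lipid epoxide hydrolase (r = 0.938), Taf4b, a TFIID subunit (0.935), and Dgcr6 (0.904). The genes most like Hdac5 were Pdcd7 (0.903), Sec24b (0.87) and Pdgfa (0.859), and those most like Hdac7 were Bcar1 (0.894), Ncam2 (0.871) and Gsr (0.853). Hdac9 ran with Ankrd13d (0.924) and Hhat (0.9), among others. Hdac6 ran with Guf1 (0.896), Carmil1 (0.879) and Mllt1 (0.872), Hdac10 with Vps37a (0.904), Nup98 (0.9) and Chmp2b (0.895), and Hdac11 with Mtx2 (0.894), Pdgfa (0.878) and Atg4d (0.857). Each value has only 11 points, which share libraries and depth, and is the highest of many.

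After CFC, Hdac5 was higher with the inhibitor in 6 of 7 tested classes, Hdac9 in 6 of 11, Hdac7 in 5 of 9 and Hdac11 in 4 of 6. Hdac4 was higher in 4 and lower in 1 of 9, Hdac6 lower in 1 of 5, and Hdac10 was not called. The comparison was made in each class, on UMIs summed per library. In the rest of the text, scaled CPM are CPM after TMM scaling, which sets the bulk of genes level between libraries. A gene was called when the adjusted p of edgeR's quasi-likelihood test was below 0.05 over all genes of the class. Of the 77 pairs of a member and a class, 51 passed the filter on low counts. Of these, 25 were higher and 2 lower with the inhibitor, against 17.6% of all tested gene and class pairs called higher and 14.9% called lower. The class IIa genes gave 21 higher and 1 lower of 36 tested pairs, with a median log2 fold change of 0.57. Hdac11 gave 4 higher of 6 tested, with a median of 0.53. The class IIb genes gave 0 higher and 1 lower of 9, with a median of -0.15. The 4 class I genes, Hdac1, Hdac2, Hdac3 and Hdac8, tested alike, gave 7 higher and 0 lower of 41 pairs with a median of 0.02. Those 7 were Hdac1 in DG granule-like (log2 fold change 1.06), CA1-like (1.05), CA3-like (0.90) and OPC-like nuclei (1.08), Hdac3 in interneuron-like (0.38) and astrocyte-like nuclei (0.97), and Hdac8 in astrocyte-like nuclei (0.73). In each of the 27 called pairs both HDACi-CFC libraries lay on one side of both Veh-CFC libraries. This separation was not particular to called pairs, as Hdac4 and Hdac9 in astrocyte-like nuclei had it without a call. The members tested in each class had median log2 fold changes of 0.34 in DG granule-like, 0.47 in CA1-like and CA3-like and 0.75 in interneuron-like nuclei, where the median of all tested genes lay between 0.002 and 0.03.

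These directions are relative to the bulk of genes. Scaled to library size, the median gene of the 11 classes shifted by -0.0756 to -0.379 on the log2 scale, and per nucleus by -0.0621 to -0.523. The calls then came to 14 higher and 3 lower with library-size scaling, which called 8.23% of all pairs higher and 30.7% lower, and to 5 higher and 2 lower per nucleus, against 3.15% and 29.0%. The median of the 4 class IIa genes in DG granule-like nuclei was 0.46 with TMM, 0.08 with library-size scaling and -0.06 per nucleus, and the class I genes gave 1 higher and 2 lower with library-size scaling. Of the 27 called pairs, 7 were called in the same direction under all 3 scalings: Hdac4, Hdac5 and Hdac6 in DG granule-like nuclei, Hdac5 in astrocyte-like and oligodendrocyte-like nuclei, Hdac7 in oligodendrocyte-like nuclei and Hdac9 in microglia-like nuclei. DESeq2 called 15 of the 27, and fewer of all genes as well (2543 higher and 2348 lower of 15604 in DG granule-like nuclei). It gave no adjusted p for Hdac5 in astrocyte-like and Hdac7 in OPC-like nuclei, and did not call Hdac4 (DESeq2 adjusted p = 0.099) or Hdac6 (0.15) in DG granule-like nuclei or Hdac7 in astrocyte-like nuclei (0.079). The other 7 without a DESeq2 call were Hdac5 and Hdac9 in CA3-like, Hdac11 in CA1-like, Hdac7 in interneuron-like, Hdac4 in subicular-cortical-like, and Hdac9 and Hdac11 in oligodendrocyte-like nuclei, with adjusted p from 0.071 to 0.42.

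**Figure D2:**
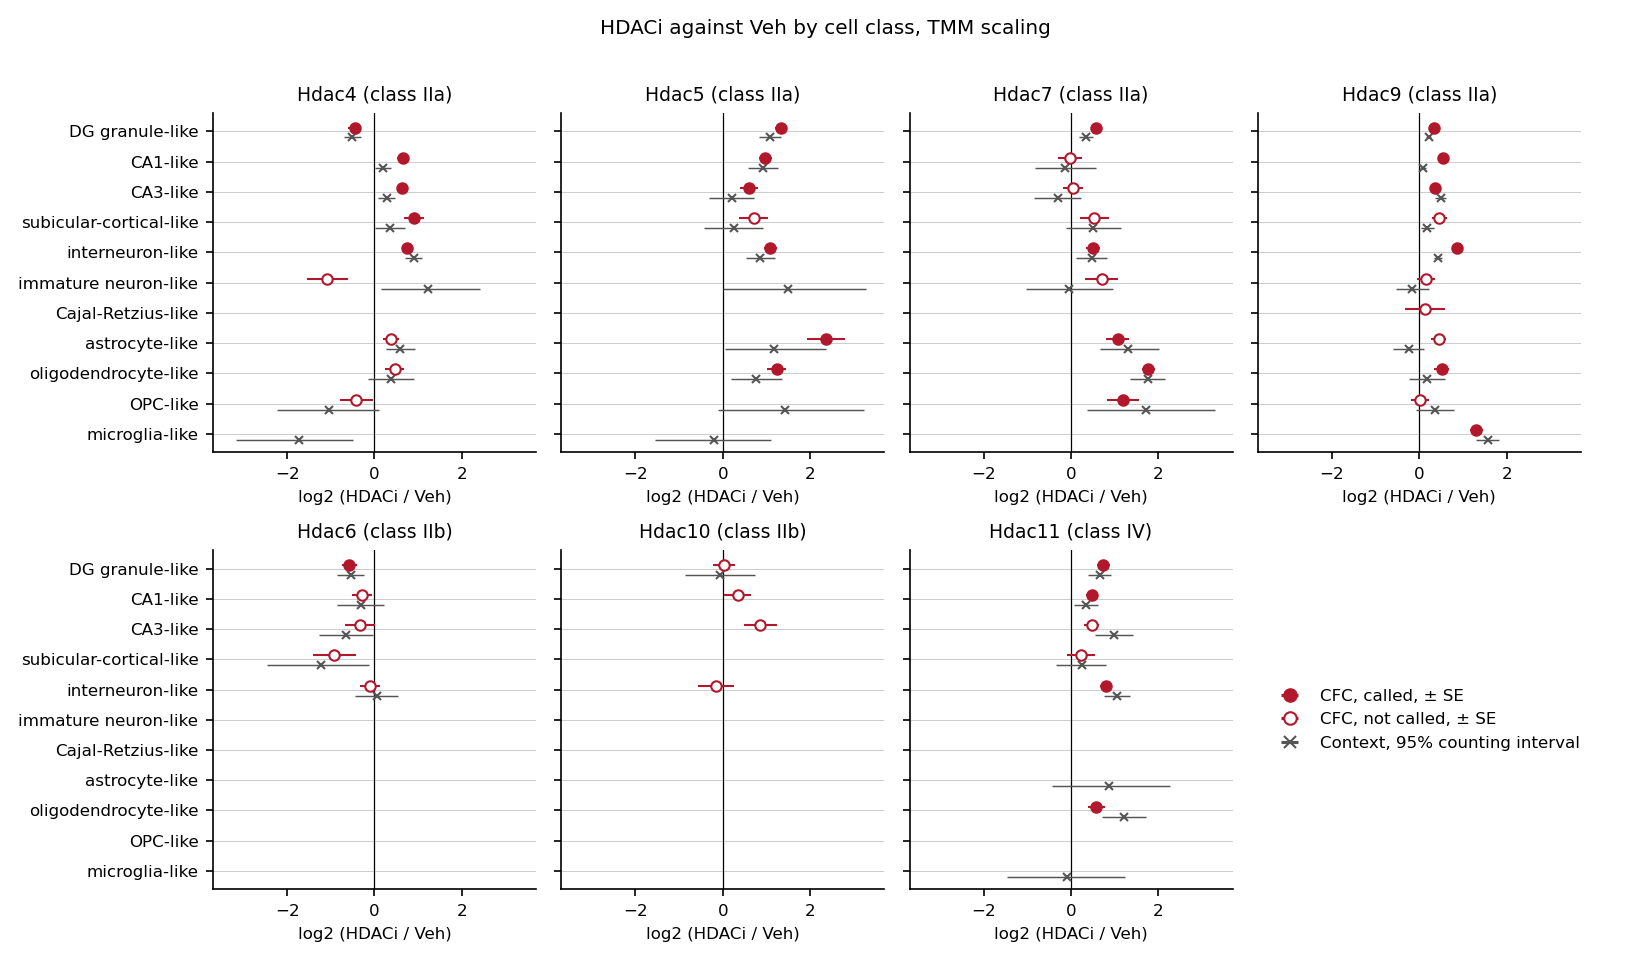
Log2 ratio of HDACi to Veh for each member and class with TMM scaling. Red circles are the CFC fold change ± SE (filled where called), grey crosses the Context ratio of 1 library to 1 with its 95% counting interval, shown from 20 UMIs up. The circles of Hdac5 lie to the right in every tested class and those of Hdac6 to the left. Hdac4 is on the left in DG granule-like but on the right in CA1-like, CA3-like and interneuron-like nuclei. Other scalings are not drawn here. Under them the rise of Hdac9 changes sign in DG granule-like nuclei, and in CA3-like nuclei with per-nucleus scaling only.

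Hdac5 rose in 6 of the 7 classes in which it was tested. In DG granule-like nuclei, where 24.5% of 15604 tested genes were called higher and 25.6% lower, it stood at 14.1 and 12.3 scaled CPM in the Veh-CFC libraries and at 33.9 and 32.4 in the HDACi-CFC libraries. The Context libraries gave 13.8 scaled CPM with vehicle and 29.25 with the inhibitor, so all 3 vehicle values lay below all 3 inhibitor values. The CFC rise was 2.53-fold (log2 fold change 1.34 ± 0.13 SE, edgeR adjusted p = 1.9e-07). It was called in each of the 3 granule clusters alone, at log2 fold changes of 1.40, 1.27 and 1.39 (45.2%, 44.6% and 37.8% of genes called). In CA1-like nuclei (18.8% of genes called higher) Hdac5 went from 22.8 and 19.5 to 41.6 and 40.8 scaled CPM, 1.96-fold, and in interneuron-like nuclei (17.6%) from 38.0 and 38.3 to 87.0 and 76.2 scaled CPM, 2.12-fold.

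The highest fold for Hdac5 was in astrocyte-like nuclei, its lowest class at baseline. Counts there were small: 4 and 7 UMIs in Veh-CFC against 24 and 32 in HDACi-CFC, or 6.64 and 9.84 against 51.1 and 39.0 scaled CPM. The rise was 5.13-fold (log2 fold change 2.36 ± 0.44 SE, edgeR adjusted p = 7.6e-06; DESeq2 gave no adjusted p), in a class with 17.3% of genes called higher. The Context libraries held 11 and 21 UMIs, a log2 ratio of 1.18 with a counting interval from 0.06 to 2.38. In oligodendrocyte-like nuclei (20.7% of genes called higher) Hdac5 went from 26.2 and 25.6 to 62.5 and 60.5 scaled CPM, 2.36-fold (edgeR adjusted p = 2.7e-04). In CA3-like nuclei (14.9%) the rise was 1.52-fold, from 19.3 and 17.7 to 27.2 and 28.5 scaled CPM (edgeR adjusted p = 0.042). That call was lost when any 1 CFC library was left out (edgeR adjusted p from 0.058 to 0.24), and the Context interval there, from -0.31 to 0.72, spanned 0. Subicular-cortical-like nuclei gave a log2 fold change of 0.71 ± 0.33 SE that was not called.

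Hdac4 moved in opposite directions in different neurons. In DG granule-like nuclei it stood at 40.8 and 34.1 scaled CPM in Veh-CFC and at 32.4 and 22.8 in HDACi-CFC, a log2 fold change of -0.46 ± 0.14 SE (edgeR adjusted p = 0.014). The Context libraries gave 42.0 and 29.6 scaled CPM, a log2 ratio of -0.50 with a counting interval from -0.69 to -0.32. All 3 vehicle values lay above all 3 inhibitor values. The fall was called under both other scalings, but not without Veh-CFC replicate 1 (log2 fold change -0.34, edgeR adjusted p = 0.077) or HDACi-CFC replicate 2 (-0.21, 0.25). In the 3 granule clusters alone the log2 fold changes were -0.23, -0.60 and -0.45, and the second was called. In the first and largest, with 4273 nuclei, the CFC groups overlapped. Hdac4 stood there at 38.2 and 30.95 scaled CPM in Veh-CFC and at 39.3 and 21.4 in HDACi-CFC. In the other clusters the CFC groups were apart.

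Outside the DG, Hdac4 rose in 4 classes. In CA1-like nuclei it stood at 63.8 and 56.1 scaled CPM in Veh-CFC and at 110.5 and 78.5 in HDACi-CFC, 1.56-fold (edgeR adjusted p = 0.0016). In CA3-like nuclei the values were 98.2 and 90.8 against 164.9 and 132.5 scaled CPM, 1.56-fold (edgeR adjusted p = 7.3e-04). This call was not made without Veh-CFC replicate 2 (edgeR adjusted p = 0.059). Interneuron-like nuclei held 90.5 and 105.6 against 181.6 and 151.0 scaled CPM, 1.68-fold, and 97.5 against 181.4 in Context. In subicular-cortical-like nuclei (8.7% of genes called higher) the rise was 1.87-fold (edgeR adjusted p = 0.012). HDACi-CFC replicate 1 had 32 nuclei of that class, and 57.7% of the class kept its name when each nucleus was named on its own. The call was lost there (log2 fold change 0.48, edgeR adjusted p = 0.14), and also without Veh-CFC replicate 1 (0.057), Veh-CFC replicate 2 (0.28) or HDACi-CFC replicate 2 (0.16). With library-size scaling the CA3-like and interneuron-like rises were called and the CA1-like (log2 fold change 0.30) and subicular-cortical-like (0.57) ones were not. Per nucleus none of the 4 was called, at 0.19 to 0.48. Hdac4 was not called in astrocyte-like, oligodendrocyte-like, OPC-like or immature neuron-like nuclei, at log2 fold changes of 0.38, 0.47, -0.42 and -1.08.

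The difference between classes was tested directly for Hdac4, as the drug effect in a class minus that in DG granule-like nuclei with the library as a block, a comparison chosen after these results were seen. The difference was 1.03 ± 0.12 SE on the log2 scale for CA1-like (edgeR adjusted p = 6.7e-08) and 1.01 ± 0.14 SE for CA3-like nuclei (6.2e-10). It was 1.09 for interneuron-like, 1.34 for subicular-cortical-like, 1.12 for oligodendrocyte-like and 0.76 for astrocyte-like nuclei, each called, whereas the differences for OPC-like and immature neuron-like nuclei were not. Of all genes, 6.14% were called above the granule effect in CA1-like and 5.72% in CA3-like nuclei. Over the 7 members, 44 such differences were counted, for pairs that also passed the low-count filter in the class itself. Of these, 10 were called, 9 above the granule effect and 1 below. Over all gene and class pairs of these fits, 4.71% were called above and 5.16% below. That background was not limited by the filter in the class, and members that failed it were tested as well, without a call. The member and background shares therefore rest on unlike sets. For the other 4 classes with a called difference of Hdac4, the background above was 7.1% (interneuron-like), 1.94% (subicular-cortical-like), 12.8% (oligodendrocyte-like) and 3.69% (astrocyte-like). The one below was Hdac5 in CA3-like nuclei, at -0.82 ± 0.24 SE (edgeR adjusted p = 0.0083), where 8.77% of genes were called below.

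**Figure D3:**
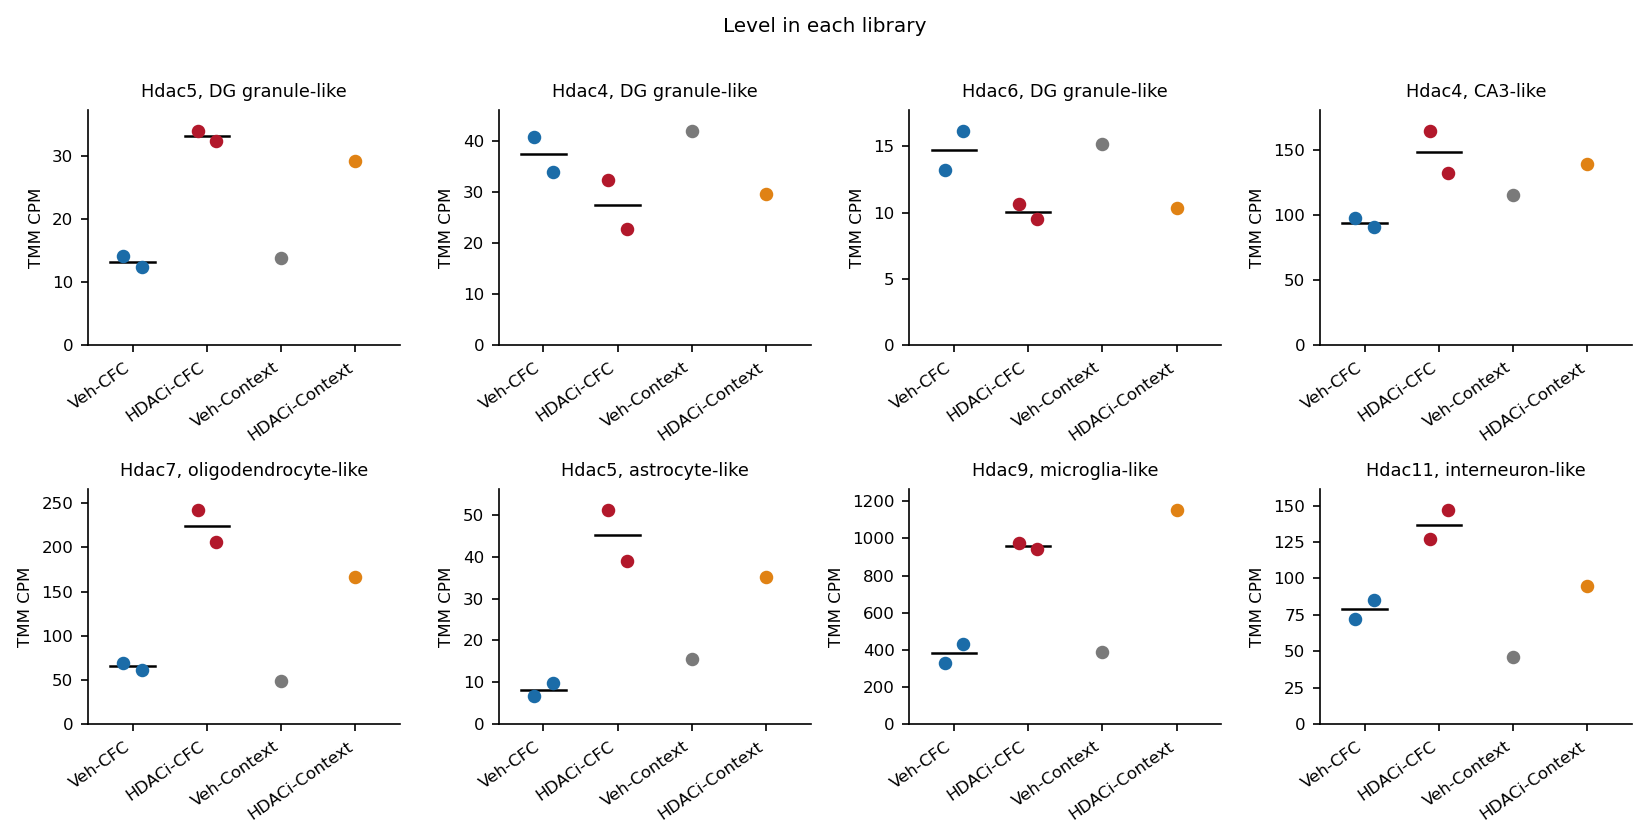
Scaled CPM in each library for 8 pairs of member and class, with a line at the mean of 2 where a group has 2 libraries. In all 8 panels the 2 HDACi-CFC points lie on one side of the 2 Veh-CFC points and the HDACi-Context point lies on the same side of the library labelled Veh-Context. Hdac4 is lower with the inhibitor in DG granule-like and higher in CA3-like nuclei.

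Hdac7 rose most in glia. In oligodendrocyte-like nuclei it stood at 69.4 and 61.2 scaled CPM in Veh-CFC and at 242.4 and 206.4 in HDACi-CFC, with 49.3 and 166.1 in the Context pair. The groups did not overlap, and the CFC rise was 3.41-fold (log2 fold change 1.77 ± 0.15 SE, edgeR adjusted p = 1.5e-07). It exceeded the granule effect by 1.35 ± 0.17 SE on the log2 scale (edgeR adjusted p = 2.2e-12), in a comparison that called 12.8% of genes above. The summed level of the 10 DG granule markers in oligodendrocyte-like nuclei was 3669 to 3672 CPM in Veh-CFC and 5054 to 5385 CPM in HDACi-CFC, with none at 0. Among them, Prox1 was higher (121.2 and 119.8 against 184 and 181 CPM) and C1ql2 overlapped (39.8 and 42.1 against 24.2 and 41.8 CPM). The part of this sum in the Hdac7 result was not tested. The same sum in DG granule-like nuclei was 6375 to 6403 and 8852 to 9412 CPM.

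In astrocyte-like nuclei, where that marker sum was 2107 to 2190 CPM in Veh-CFC and 2138 to 2150 CPM in HDACi-CFC, Hdac7 went from 41.5 and 53.4 to 115.0 and 90.1 scaled CPM, 2.10-fold (edgeR adjusted p = 6.2e-04), with 40.9 and 101.8 in the Context pair. In OPC-like nuclei, with 17.1% of genes called higher, it stood at 39.7 and 31.6 against 117.5 and 50.9 scaled CPM, 2.27-fold (edgeR adjusted p = 0.015). The DG granule marker sum there was 2116 to 2162 CPM in Veh-CFC and 3318 to 3583 CPM in HDACi-CFC, with 1 of the 10 at 0 in each library. Of its markers, Prox1 (29.95 and 48.8 against 31.3 and 20.5 CPM) and C1ql2 (47.4 and 44.6 against 19.9 and 47.25 CPM) overlapped between the groups. The part of this sum in the Hdac7 result was not tested. Without HDACi-CFC replicate 1 that log2 fold change was 0.56 and was not called (edgeR adjusted p = 0.38), nor was it when Veh-CFC replicate 2 was left out (0.07). Among neurons, Hdac7 rose by 0.58 on the log2 scale in DG granule-like nuclei, from 45.3 and 40.1 to 66.7 and 60.8 scaled CPM (edgeR adjusted p = 1.2e-04). It rose 1.43-fold in interneuron-like nuclei, a call not made without Veh-CFC replicate 2 (edgeR adjusted p = 0.17) or HDACi-CFC replicate 2 (0.12). CA1-like and CA3-like nuclei gave log2 fold changes of -0.03 ± 0.28 SE and 0.05 ± 0.23 SE, with all 6 values between 5.34 and 6.00 scaled CPM in CA1-like nuclei.

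Hdac9 rose in 6 of 11 tested classes, most in microglia-like nuclei. It was not called in immature neuron-like or Cajal-Retzius-like nuclei, where 8.79% and 9.18% of genes were called higher. In microglia-like nuclei it stood at 329.4 and 433.4 scaled CPM in Veh-CFC and at 974.6 and 945.4 in HDACi-CFC, with 389.7 and 1153 in the Context pair. All 3 inhibitor values were over 2 times each vehicle value, and the CFC rise was 2.47-fold (log2 fold change 1.31 ± 0.14 SE, edgeR adjusted p = 1.4e-15), against 20.7% of genes called higher in the class. It was the one member with enough counts for a test in microglia-like nuclei. This rise exceeded the granule effect by 0.87 ± 0.16 SE on the log2 scale (edgeR adjusted p = 3.1e-06), where 4.58% of genes were called above. Marker sums of some other cell types also differed. The 10 DG granule markers summed to 2084 to 2218 CPM in Veh-CFC and 3400 to 3518 CPM in HDACi-CFC. Of these, Prox1 (19.8 and 47.1 against 26.15 and 39.2 CPM) and C1ql2 (49.4 and 63.5 against 74.7 and 56.7 CPM) overlapped between the groups. The other markers of that list are not given singly here. The 8 CA1 markers summed to 655.8 to 731.6 and 384.8 to 390.2 CPM. The 9 OPC markers summed to 67.6 to 95.6 and 187.4 to 198 CPM, and the 10 endothelial markers to 45.1 to 69.2 and 113.3 to 168.1 CPM. The 12 mural and leptomeningeal markers were also higher with the inhibitor (53.3 to 59.3 and 74.7 to 106.8 CPM), and the sums of the remaining lists, CA3 and interneuron markers among them, overlapped between the groups. 1 of the 10 DG granule markers was at 0 in each Veh-CFC library, and none of the 8 CA1 markers. Their part in the result was not tested. The 10 microglial markers summed to 18650 to 18940 and 18550 to 19630 CPM, with none at 0.

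In interneuron-like nuclei, its highest class at baseline, Hdac9 went from 481.6 and 419.6 to 824.5 and 806.5 scaled CPM, 1.81-fold (edgeR adjusted p = 5.8e-06), and from 591.8 to 795.6 in Context. The difference from the granule effect was 0.42 ± 0.09 SE on the log2 scale (edgeR adjusted p = 3.0e-04, with 7.1% of genes called above). In CA1-like nuclei it went from 322.3 and 303.4 to 474.4 and 443.6 scaled CPM, 1.47-fold. The library labelled Veh-Context stood at 427.5 there and HDACi-Context at 451.8, so the Context log2 ratio was 0.08, with a counting interval from 0.004 to 0.16. In DG granule-like nuclei the rise was 1.26-fold, from 278.3 and 268.3 to 348.4 and 341.5 scaled CPM (edgeR adjusted p = 4.2e-04), but the log2 fold change turned to -0.04 with library-size scaling and to -0.19 per nucleus. In CA3-like nuclei it was 1.29-fold (edgeR adjusted p = 0.011), with -0.05 per nucleus and no call without Veh-CFC replicate 2 (0.26). Oligodendrocyte-like nuclei gave 1.42-fold (edgeR adjusted p = 0.028), and 3 of the 4 fits that left out 1 CFC library did not call it (0.095 and 0.14 when Veh-CFC replicate 1 or 2 was omitted, 0.31 when HDACi-CFC replicate 2 was). Of the 5 classes without a call, astrocyte-like nuclei were nearest, at a log2 fold change of 0.44 ± 0.18 SE (edgeR adjusted p = 0.052).

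Hdac6 was the other member that fell. In DG granule-like nuclei it stood at 13.2 and 16.1 scaled CPM in Veh-CFC and at 10.6 and 9.48 in HDACi-CFC, with 15.1 and 10.4 in the Context pair. All 3 vehicle values lay above all 3 inhibitor values, a log2 fold change of -0.58 ± 0.17 SE in CFC (edgeR adjusted p = 0.0096) and a Context log2 ratio of -0.55 with a counting interval from -0.86 to -0.23. It was called under all 3 scalings, and not without Veh-CFC replicate 2 (log2 fold change -0.40, edgeR adjusted p = 0.19). In the 3 granule clusters alone it was -0.82, -0.41 and -0.33, and the first was called. In CA1-like, CA3-like, subicular-cortical-like and interneuron-like nuclei the log2 fold changes were -0.28, -0.32, -0.92 and -0.09, none of them called. Over all nuclei pooled, Hdac6 went from 13.8 and 15.6 to 10.1 and 9.08 scaled CPM, a log2 fold change of -0.63 ± 0.12 SE (edgeR adjusted p = 0.0011). There 25.7% of genes were called lower.

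Hdac10, the other class IIb gene, was tested in 4 classes and called in none, at log2 fold changes of 0.03 in DG granule-like, 0.34 in CA1-like, 0.86 in CA3-like and -0.15 in interneuron-like nuclei. The CA3-like value rested on 10 and 14 UMIs against 15 and 28 (edgeR adjusted p = 0.097). Hdac11, the class IV enzyme, rose in 4 of 6 tested classes. In interneuron-like nuclei, its highest class at baseline, it stood at 72.1 and 85.5 scaled CPM in Veh-CFC and at 126.8 and 147.0 in HDACi-CFC, 1.74-fold (edgeR adjusted p = 1.7e-04), with 46.0 and 95.2 in the Context pair. In DG granule-like nuclei, among its lowest, it went from 12.7 and 14.2 to 21.0 and 24.0 scaled CPM, 1.67-fold (edgeR adjusted p = 3.5e-04), with 14.5 and 22.9 in Context. The rise in CA1-like nuclei was 1.39-fold (edgeR adjusted p = 0.0084), and was not called without Veh-CFC replicate 1 (0.082). That in oligodendrocyte-like nuclei was 1.49-fold (edgeR adjusted p = 0.023), and was not called without Veh-CFC replicate 1 (0.15), Veh-CFC replicate 2 (0.052) or HDACi-CFC replicate 1 (0.052). CA3-like nuclei stood at 0.47 ± 0.18 SE on the log2 scale (edgeR adjusted p = 0.059), and the Context log2 ratio there was 0.98, with a counting interval from 0.55 to 1.41.

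**Figure D4:**
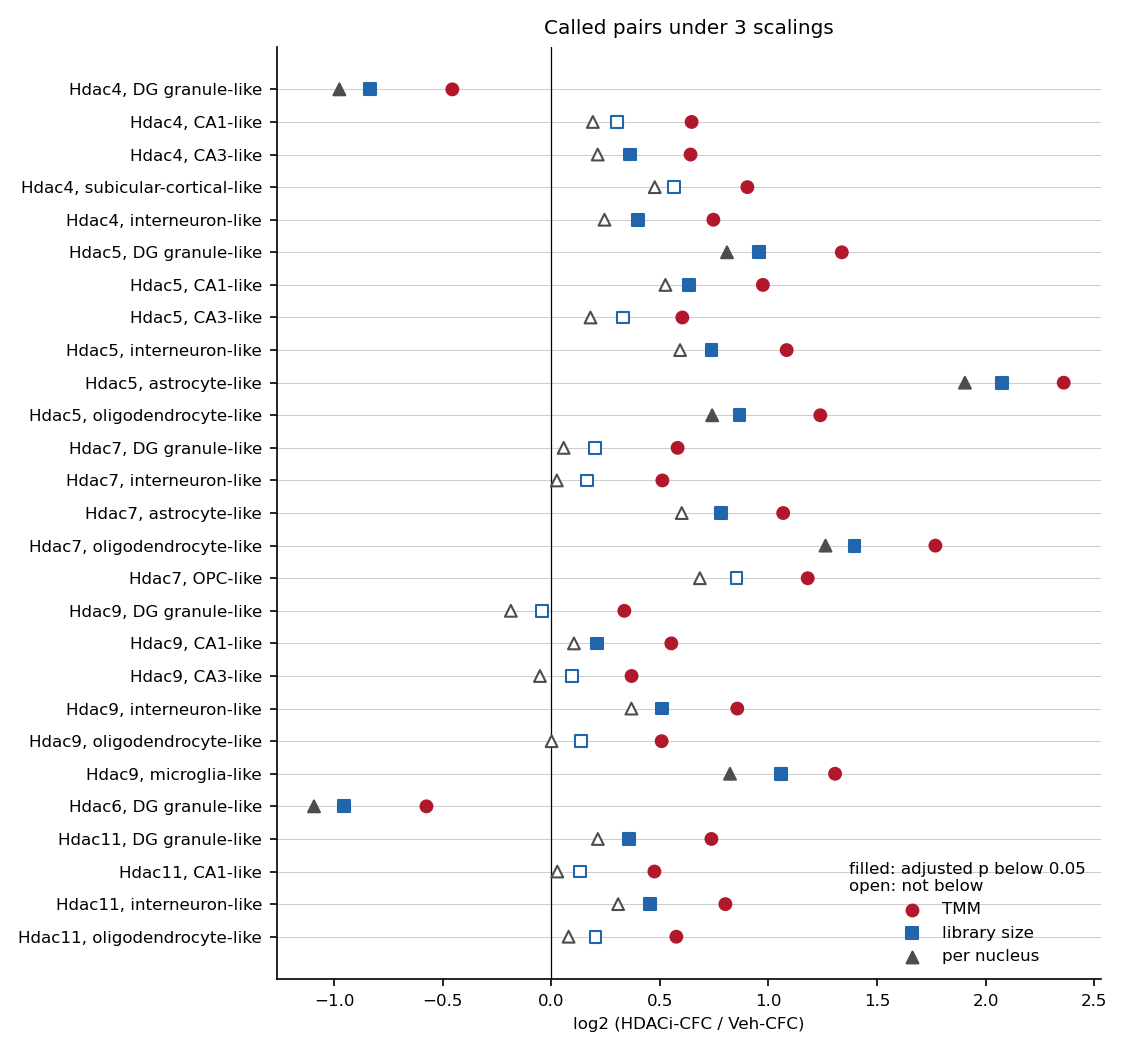
Log2 fold change in CFC of the 27 called pairs under 3 scalings: TMM (circles), library size (squares) and per nucleus (triangles), filled where the adjusted p was below 0.05. All pairs move to the left from TMM to per-nucleus scaling, Hdac9 in DG granule-like and CA3-like nuclei passes 0, and 7 pairs are filled under all 3.

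The Context pair has 1 library per group. Its libraries are not part of the CFC group means and add no spread to the fit, but they share the TMM scaling with the CFC libraries. No replicate stands behind a Context value, so its ratios carry counting error only and no test. The description of the library labelled Veh-Context names the inhibitor. Its Hdac5 level in DG granule-like nuclei, 13.8 scaled CPM, was near the Veh-CFC values, whereas its Hdac9 level in CA1-like nuclei (427.5) was nearer to the HDACi-CFC values and that in subicular-cortical-like nuclei (517.7) lay above all 4 CFC libraries. Of the 77 pairs, 53 had at least 20 UMIs in the Context pair, some of them not tested in CFC. With TMM, 38 of the 53 had a ratio above 0, against 50.0% of all pairs tested in CFC. Library-size scaling gave 29 and per-nucleus scaling 33, with no share of all pairs to set beside them. Counting intervals with TMM lay above 0 for 28 of the 53 and below 0 for 5. Of all pairs tested in CFC, 22.9% and 19.7% did so. All 27 pairs called in CFC had a Context ratio of the same sign, 25 of them with an interval that left out 0. Of all gene and class pairs called in CFC with that many UMIs, 94.6% had the same sign in Context, so the members' share is near the background, and 73.1% had an interval on that side of 0. The exceptions to a clear interval were Hdac5 in CA3-like and Hdac9 in oligodendrocyte-like nuclei (0.18, from -0.24 to 0.59). Hdac4 in microglia-like nuclei, not tested in CFC, had 26 UMIs with vehicle and 7 with the inhibitor, a log2 ratio of -1.72 from -3.17 to -0.48. Hdac4 in immature neuron-like nuclei had a Context log2 ratio of 1.23 from 0.16 to 2.43, where the CFC log2 fold change was -1.08 ± 0.47 SE and not called.

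The proteins that class IIa enzymes work with were followed in DG granule-like nuclei from lists of known partners. Among MEF2 factors, 2 of 4 tested were higher and 0 lower. Mef2c went from 330.2 and 319.0 to 683.6 and 719.6 scaled CPM (log2 fold change 1.11, edgeR adjusted p = 2.9e-10), and Mef2d rose by 0.94 on the log2 scale. Both were called under all 3 scalings, and under the other 2 the list had 2 higher and 2 lower. Mef2d also rose in CA1-like (0.98), CA3-like (0.51), interneuron-like (0.60), subicular-cortical-like (0.78), immature neuron-like (1.40) and astrocyte-like nuclei (0.89). Mef2c rose in oligodendrocyte-like (1.25), subicular-cortical-like (1.04), interneuron-like (0.66), microglia-like (0.65) and CA1-like nuclei (0.31). Mef2a rose in 5 classes, among them interneuron-like (0.83) and microglia-like nuclei (0.43), and fell in astrocyte-like nuclei (-0.70). In microglia-like nuclei Mef2b fell (-2.55). These per-class values are with TMM scaling.

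Of 18 tested kinases that can phosphorylate class IIa HDACs, 11 were higher and 3 lower in DG granule-like nuclei. Library-size scaling gave 5 and 6, and per-nucleus scaling 2 and 6, so the balance differs with the scaling. The counts of these lists stand beside 24.5% of all genes higher and 25.6% lower with TMM in this class, 9.97% and 45.8% when scaled to library size, and 4.4% and 46.0% on the per-nucleus scale. Camk2a, a subunit of the calcium/calmodulin kinase of synapses, went from 1145 and 1078 to 2417 and 2237 scaled CPM (log2 fold change 1.07), and Prkd3, a protein kinase D, present below 2 scaled CPM in the CFC libraries, rose by 1.55 on the log2 scale (called with TMM only). In Context Prkd3 stood the other way, at 2.51 scaled CPM with vehicle and 1.33 with the inhibitor. The salt-inducible kinases Sik1 and Sik2 fell by 1.18 and 0.57 on the log2 scale, under all 3 scalings. In Context Sik2 stood at 72.5 scaled CPM with vehicle, near the HDACi-CFC values (71.35 and 65.3), and at 43.8 with the inhibitor. Of 6 tested 14-3-3 genes 4 were higher and 1 lower: Ywhah (0.88) and Ywhag (0.87) rose and Ywhaq (-0.40) fell, with 3 higher and 2 lower under library-size scaling and 0 and 1 per nucleus. Of 13 cofactors 4 were higher and 3 lower (3 and 7, and 2 and 7, under the other scalings), shares near those of all genes with TMM. The corepressor subunit Tbl1x (1.97) rose, while Ankra2 (-0.55), an ankyrin-repeat partner of class IIa HDACs, and Cbx5 (-0.39), heterochromatin protein 1 alpha, fell.

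Among 12 tested genes of tubulin acetylation and Hdac6 partners, 4 were higher and 3 lower (1 and 6, and 0 and 6, under the other scalings), again near the shares of all genes. Cttn, which encodes the Hdac6 substrate cortactin, rose by 0.81 on the log2 scale. Atat1, the tubulin acetyltransferase that opposes Hdac6, fell by 0.85 from 19.6 and 20.6 to 10.5 and 11.7 scaled CPM. In the Context pair Atat1 stood at 11.7 scaled CPM with vehicle, already near the HDACi-CFC values, and at 6.96 with the inhibitor. Tuba4a rose (0.68) and Plaa fell (-0.47). Plaa stood at 47.7 and 46.2 scaled CPM in HDACi-CFC, and at 44.4 (vehicle) and 27.6 (inhibitor) in Context. Of 11 genes of polyamine metabolism, the substrates' pathway of Hdac10, 1 was higher and 4 lower (1 and 7, and 0 and 7, under the other scalings). Oaz2, an ornithine decarboxylase antizyme, rose (0.68), and Smox (-1.02) and Srm (-0.86), spermine oxidase and spermidine synthase, fell. With vehicle in Context, Smox (3.98 scaled CPM) and Srm (4.47) were near or below their HDACi-CFC values (2.99 and 3.71, and 5.99 and 5.01). With the inhibitor in Context they stood at 1.63 and 3.26. Shmt2, whose product Hdac11 can deacylate, fell from 5.51 and 4.68 to 0.998 and 1.74 scaled CPM (log2 fold change -1.80). In Context it stood at 2.02 scaled CPM with vehicle and 0.741 with the inhibitor. Every gene named in this paragraph moved to the same side in Context as in CFC. Exposure and how the Context libraries were made cannot be told apart in these vehicle levels.

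Some limits bear on single members. Hdac4, Hdac7, Hdac9 and Hdac11 overlap genes on the opposite strand (Gm37048 and Gm26720, Slc48a1, Gm24429, and Gm14573 and Gm44002), and Hdac4, Hdac5 and Hdac9 overlap Gm37036, Mir8101 and 4921508M14Rik, among others, on their own strand. The sources used here do not state whether strand was used in counting or introns were counted, so reads of these neighbours cannot be told apart from the members'.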

How the data were processed

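Nuclei of 6 libraries, each from 5 pooled mice, were measured with 3′ droplet chemistry. Per the file headers the deposited counts are raw UMIs per gene and barcode from Cell Ranger 3.0.1 (CFC) or 3.0.2 (Context). The submitters' processing notes name mm10 and Seurat 4.0.3. Whether introns or strand were used in counting is not given in the sources used here. The members and lists were chosen with earlier results of these data known.

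Of 30323 barcodes, 27766 had 500 genes or more and no more than 5% mitochondrial UMIs, and 927 doublets called by Scrublet (expected rate 0.06) were removed. Nuclei were clustered with scanpy 1.11.5 (2000 variable genes, 30 components, 20 neighbours, Leiden resolution 1.0), leaving out the members and pathway lists. A cluster took the marker list with the highest mean log2 ratio to all other nuclei, if that was at least 0.8, at least 3 of its markers were detected in 10% of nuclei, and the cluster's top 10 genes held 1 or more of them and no more of any other list. On these conditions 7 of 26 clusters stayed unnamed. Classes with under 30 nuclei in any library were left out.

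Summed UMIs of each class and library were tested with edgeR 4.0.16 (R 4.3.3): 6 libraries as 4 group means, filterByExpr on the 4 CFC libraries, TMM, the quasi-likelihood test and Benjamini-Hochberg adjustment over all genes of a class, called below 0.05. The script was tested on simulated data. Mice are pooled and nothing ties a replicate to separate handling, so p-values measure the spread between libraries. Context ratios (1 library against 1) carry 95% intervals that cover counting error only, given from 20 UMIs. DESeq2 1.42.0 and other scalings were alternatives. Of the features, 99.6% matched GENCODE M21, used for positions. Genes named from pathway lists are up to 2 highest and 2 lowest called in DG granule-like nuclei whose CFC groups did not overlap. Some genes that these rules select are not reported here. MEF2 values in other classes were added after the data were seen.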

Additional observations from a re-analysis of the deposited data

Results flagged for a closer look

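For 10 pairs of a member and a class the effect of the inhibitor after CFC differed from that in DG granule-like nuclei by a test of the difference itself (edgeR, library as block, log2 scale, adjusted over all genes). This comparison was added after the data were seen. For Hdac4 the effect was higher by 1.03 in CA1-like, 1.01 in CA3-like, 1.09 in interneuron-like, 1.34 in subicular-cortical-like, 1.12 in oligodendrocyte-like and 0.76 in astrocyte-like nuclei. The Hdac4 effect in DG granule-like nuclei was itself not called without Veh-CFC replicate 1 or HDACi-CFC replicate 2.

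For Hdac9 the effect was higher by 0.87 in microglia-like and by 0.42 in interneuron-like nuclei. For Hdac7 it was higher by 1.35 in oligodendrocyte-like nuclei. For Hdac5 the CA3-like effect was lower than the DG granule-like effect, a difference of -0.82.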

How the results depend on the processing

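The 25 higher and 2 lower calls became 14 and 3 with library-size scaling, 5 and 2 per nucleus, and 15 and 0 with DESeq2, which gave no adjusted p for 2 of the called pairs. DESeq2 called fewer of all genes in every class. In DG granule-like nuclei it called 2543 higher and 2348 lower of 15604, against 3830 and 3991 in the main fit. At 0 lower calls, DESeq2 gave Hdac4 and Hdac6 in DG granule-like nuclei log2 fold changes of -0.43 and -0.54. Leaving out 1 CFC library gave 17 to 25 higher and 1 to 2 lower. Of the 27 calls, 16 were made with every CFC library left out in turn and 4 under all alternatives for the class as a whole: Hdac5 in DG granule-like and oligodendrocyte-like, Hdac7 in oligodendrocyte-like and Hdac9 in microglia-like nuclei. The replicate block gave 27 higher and 2 lower and lost no call. Of all genes in DG granule-like nuclei it called 4189 higher and 4313 lower. Only 2 numbers pair the libraries, and no label ties them. For each gene, the deviation of replicate 1 from its group mean was taken in Veh-CFC and in HDACi-CFC. Over genes, these 2 deviations correlated at -0.0864 to 0.218, depending on the class (all nuclei included). With doublets kept, Hdac4 in astrocyte-like nuclei was 178.8 CPM at baseline. The cause was not tested for any of these.

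Log2 fold changes that changed sign were near 0 or not called, except Hdac9 in DG granule-like (-0.043 library-size, -0.19 per nucleus) and CA3-like nuclei (-0.052 per nucleus). With library-size and per-nucleus scaling, Hdac7 in CA3-like gave -0.22 and -0.37, Hdac10 in DG granule-like -0.35 and -0.50, Hdac9 in OPC-like -0.32 and -0.48, Hdac9 in immature neuron-like -0.078 and -0.076, and Hdac11 in subicular-cortical-like nuclei -0.11 and -0.22. Per nucleus alone, Hdac10 in CA1-like gave -0.10, Hdac4 -0.091 and Hdac9 -0.035 in astrocyte-like, and Hdac4 in oligodendrocyte-like nuclei -0.032. With additive terms Hdac7 in CA3-like gave -0.078, Hdac9 in Cajal-Retzius-like -0.11 and Hdac10 in DG granule-like nuclei -0.011. With doublets kept, Hdac9 in Cajal-Retzius-like gave -0.021 and Hdac10 in DG granule-like nuclei -0.0038. With each nucleus named on its own, Hdac10 in CA1-like gave -0.033, Hdac9 in OPC-like -0.060 and Hdac4 in immature neuron-like nuclei 0.019. Hdac10 in DG granule-like nuclei gave -0.012 unfiltered, -0.0035 with DESeq2, and -0.10 and -0.16 in clusters 0 and 2. Hdac9 in OPC-like nuclei gave -0.039 unfiltered and -0.011 with the 4 CFC libraries only. Leaving out 1 CFC library gave ranges of -0.090 to 0.012 for Hdac7 in CA1-like, -0.022 to 0.088 for Hdac7 in CA3-like, -0.88 to 0.26 for Hdac6 in CA3-like, -0.40 to 0.68 for Hdac9 in Cajal-Retzius-like, -0.27 to 0.27 for Hdac10 in DG granule-like, -0.15 to 0.25 for Hdac9 in OPC-like, -0.30 to 0.12 for Hdac6 and -0.54 to 0.069 for Hdac10 in interneuron-like, and -0.16 to 0.37 for Hdac11 in subicular-cortical-like nuclei. Depth limits Hdac10 most, with 4 of 11 classes tested.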
